A study of Homo sapiens with 6 samples.

Results

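Keratins are the proteins of the intermediate filaments that give epithelial cells their mechanical strength. The genes described here are 8 keratins, KRT4, KRT7, KRT8, KRT10, KRT18, KRT19, KRT23 and KRT80, which were selected on the difference measured between MPM-1 and DMSO in these same libraries. The deposited table of 12982 genes holds 7 of them by symbol, and KRT23 was not analysed here. SW480, a long-established line from a human adenocarcinoma of the colon that carries the genotype label WT, was treated for 24 h with the solvent DMSO or with MPM-1, a fluorescent compound made to accumulate in mitochondria that the sample labels call WT4. Each treatment has 3 RNA sequencing libraries from an mRNA preparation kit, and the text used here names no dose for this experiment. Nothing states that the 3 libraries of a treatment came from separate cultures, so p-values measure only the spread between these libraries, which may be technical.

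A keratin filament is an obligate heteropolymer. Each of its building blocks joins an acidic type I keratin with a basic type II keratin, and a keratin that lacks a partner is degraded. Simple epithelia such as the lining of the colon are built mainly on KRT8 as the type II partner with KRT18, KRT19 and KRT20 as type I partners, whereas KRT4 and KRT13 form the filaments of non-cornified stratified mucosa, and KRT10 marks the suprabasal epidermis. In tumor pathology KRT20 without KRT7 is the common pattern of colorectal carcinoma, and KRT8, KRT18 and KRT19 are retained in most carcinomas.

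Of the 7 keratins, KRT8, KRT7, KRT80 and KRT4 are type II and KRT18, KRT19 and KRT10 are type I. The sequence that the family shares most closely is the end of the central helical rod, known as the helix termination motif, where many disease mutations of skin keratins fall. The following 36 coding bases of the sense strand, read 5′ to 3′ from transcripts of GENCODE release 29 on GRCh38, are shown because they make visible how alike the genes are from which the sequenced fragments were assigned. Capitals mark the codons for threonine, tyrosine, arginine, any residue, leucine, leucine and glutamate.
KRT7: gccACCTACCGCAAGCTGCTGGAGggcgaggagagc
KRT4: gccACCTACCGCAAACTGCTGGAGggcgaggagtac
KRT18: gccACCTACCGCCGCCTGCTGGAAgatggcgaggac
KRT19: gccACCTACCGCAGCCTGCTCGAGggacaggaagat
KRT10: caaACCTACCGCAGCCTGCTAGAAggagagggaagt
KRT81: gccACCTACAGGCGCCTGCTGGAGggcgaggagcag
KRT86: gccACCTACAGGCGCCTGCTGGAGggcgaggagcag

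Within this stretch KRT7 differed from KRT4 at 3 of 36 bases, whereas KRT18 differed from KRT19 at 10. The motif was found once in the coding sequence of 12 of the 13 keratins in the table and in none of KRT80. KRT81 and KRT86, type II keratins of the hair cortex that were not among the listed genes, had no mismatch in the 36 bases. Over whole transcripts, 29.4% of the 100-base words of KRT81 also occur in KRT86 and 27% of those of KRT86 in KRT81, so fragments may be shared between this pair and their separate values are uncertain. No 100-base word of KRT4, KRT10, KRT19 or KRT80 occurs in the transcript of another annotated gene. The shares that do were 16.6% for KRT18, all in KRT8, and 7.67% for KRT7, all in its antisense gene. For KRT8 the share was 7.56%, spread over 4 genes and led by the pseudogene KRT8P3 (4.47%). For KRT13 and KRT16, outside the list, the shares were 14.8% and 7.18%.

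The type II genes lie on chromosome 12 of GRCh38, with KRT80 at chr12:52168996-52192000, KRT7 at chr12:52232520-52252186, KRT4 at chr12:52806549-52814551 and KRT8 at chr12:52897187-52949954. KRT18, at chr12:52948871-52952901, is the type I gene of that cluster. Here KRT18 and KRT8 run on opposite strands with 525 shared exon bases, counted over all their annotated transcripts. KRT10, at chr17:40818117-40822595, and KRT19, at chr17:41523617-41528308, belong to the type I cluster on chromosome 17. Whether the counting used strand is not given in the sources used here. It is therefore not known whether reads from the shared bases of KRT8 and KRT18 were told apart. The same holds for the 282 bases of KRT7 under its antisense gene. It also holds for 476 exon bases of KRT13, which was not among the listed genes, under an antisense gene. GENCODE names 50 pseudogenes after KRT8, 67 after KRT18 and 5 after KRT19. None of these is in the table, and how their reads were assigned is not known.

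The libraries held between 31733667 and 40269820 counts, which sets the limit for an undetected gene (3 counts) at 0.0695 to 0.0985 CPM, that is, counts scaled to library size and adjusted between libraries by TMM. This limit covers counting error only. Levels are given as FPKM, the deposited values per transcript length and sequencing depth, which can be compared between genes, and fold changes come from the counts. The call of a gene required both an adjusted p-value below 0.01 and a change of 1 or more on the log2 scale, up or down. DMSO replicate 1 had the highest CPM of the 3 DMSO libraries for 7 of 7 keratins, against 38.3% of all genes. Without it the fitted log2 fold changes were -4.80 for KRT4, 2.96 for KRT7, 0.50 for KRT8 and 1.18 for KRT10. They were 0.94 for KRT18 and 2.24 for KRT80, and those of KRT19, KRT15, KRT81 and KRT86 are given below. Of 16 markers of colonic epithelium 10 were in the table, and their summed level was 905 to 981 FPKM in DMSO and 906 to 956 FPKM in MPM-1 libraries. EPCAM and LGALS4, named with their values in view, dominate this sum, at means of 400 and 317 FPKM with DMSO. Single markers rose and fell within it, as given at the end. Among markers of other cells, 1 of 6 for fibroblasts, 1 of 4 for leukocytes and 0 of 3 for endothelium were in the table. COL1A1 of fibroblasts had 0.391 to 0.51 FPKM with DMSO and 0.0255 to 0.163 FPKM with MPM-1, and CD14 of leukocytes had 4.56 to 5.37 FPKM and 1.07 to 2.43 FPKM. Their part in the results below was not tested.

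KRT8, KRT18 and KRT19 had by far the highest levels of the keratins in SW480 cells, and all were higher in every MPM-1 library than in any DMSO library. KRT8, the type II keratin of simple epithelia, measured 2308, 2065 and 1997 FPKM in DMSO replicates 1 to 3 and 2660, 2398 and 2494 FPKM after MPM-1. The lowest MPM-1 library lay just above the highest DMSO library. Its mean went from 2124 ± 164 to 2517 ± 133 FPKM (SD, n = 3 libraries each), and its fitted log2 fold change was 0.42 with a standard error of 0.08, below the size set for a call.

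KRT18, the usual type I partner of KRT8, measured 1288, 1234 and 1180 FPKM with DMSO and 2085, 2014 and 2048 FPKM with MPM-1. The replicates lay close together and the gap between treatments was wide. The means were 1234 ± 54.1 and 2049 ± 35.4 FPKM, with a log2 fold change of 0.89 (standard error 0.07). KRT19, the smallest keratin, which lacks most of the tail domain and whose fragments serve as a tumor marker, measured 1384, 1117 and 1116 FPKM with DMSO and 1996, 1892 and 2157 FPKM with MPM-1. DMSO replicate 1 stood above the other two, yet below every MPM-1 library. The means of 1206 ± 154 and 2015 ± 134 FPKM gave a log2 fold change of 0.89 (standard error 0.10), which without DMSO replicate 1 was 1.02 and past the size set for a call.

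KRT10, the type I keratin of differentiating epidermis, was the only listed type I gene called higher. It measured 19.3, 19.2 and 18.4 FPKM in the DMSO libraries and 40.5, 32.6 and 36.8 FPKM in the MPM-1 libraries. The DMSO values were nearly equal and the MPM-1 values all stood above them. The means were 19 ± 0.505 and 36.6 ± 3.96 FPKM, and the log2 fold change of 1.14 (standard error 0.11) lay close to the threshold. With scaling by library size alone it was 0.98, and the call was lost.

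KRT7 and KRT80 were type II keratins of low level that were called higher. KRT7, which is typical of glandular and ductal epithelia and of biliary, lung and breast carcinomas, had 58, 57 and 55 counts with DMSO and 298, 350 and 348 with MPM-1. This corresponded to 0.998, 0.773 and 0.81 FPKM and to 5.01, 6.07 and 5.41 FPKM. Every MPM-1 library stood severalfold above every DMSO library. The means were 0.86 ± 0.121 and 5.5 ± 0.537 FPKM, and the log2 fold change of 2.82 (standard error 0.20) was the largest rise among the 7. On the log2(FPKM + 1) scale, which understates the change of low genes, it was 1.80.

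KRT80, a keratin of differentiating epithelia that has been described near desmosomal plaques, had 2.58, 1.77 and 1.29 FPKM with DMSO and 8.47, 5.85 and 5.07 FPKM with MPM-1. The libraries of each treatment were spread widely, replicate 1 being the highest in both, and the treatments did not overlap. The means were 1.88 ± 0.65 and 6.46 ± 1.78 FPKM. The log2 fold change was 1.94 (standard error 0.27) and lay between 1.69 and 2.24 with a library left out.

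KRT4, the type II keratin of the esophagus and other moist stratified mucosa, was the only listed keratin called lower. Its counts were 174, 131 and 164 with DMSO and 0, 0 and 12 with MPM-1, or 2.04, 1.21 and 1.64 FPKM against 0, 0 and 0.127 FPKM. Only MPM-1 replicate 3 held any read of it. The mean was 4.14 ± 1.12 CPM with DMSO and 0.119 ± 0.206 CPM with MPM-1. The fitted log2 fold change was -5.01 (standard error 0.81) and rests on the 12 counts of MPM-1 replicate 3. Without that library the gene was at 0 after MPM-1, and the DMSO mean was 42.2-fold above the limit of 3 counts per library. This value leaves out the only MPM-1 library with reads, at 0.357 CPM, and is no bound for all 3. With all libraries the fitted change was 32.3-fold. No 0 here shows absence, since a count of 0 allows up to 3 counts.

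**Figure D1:**
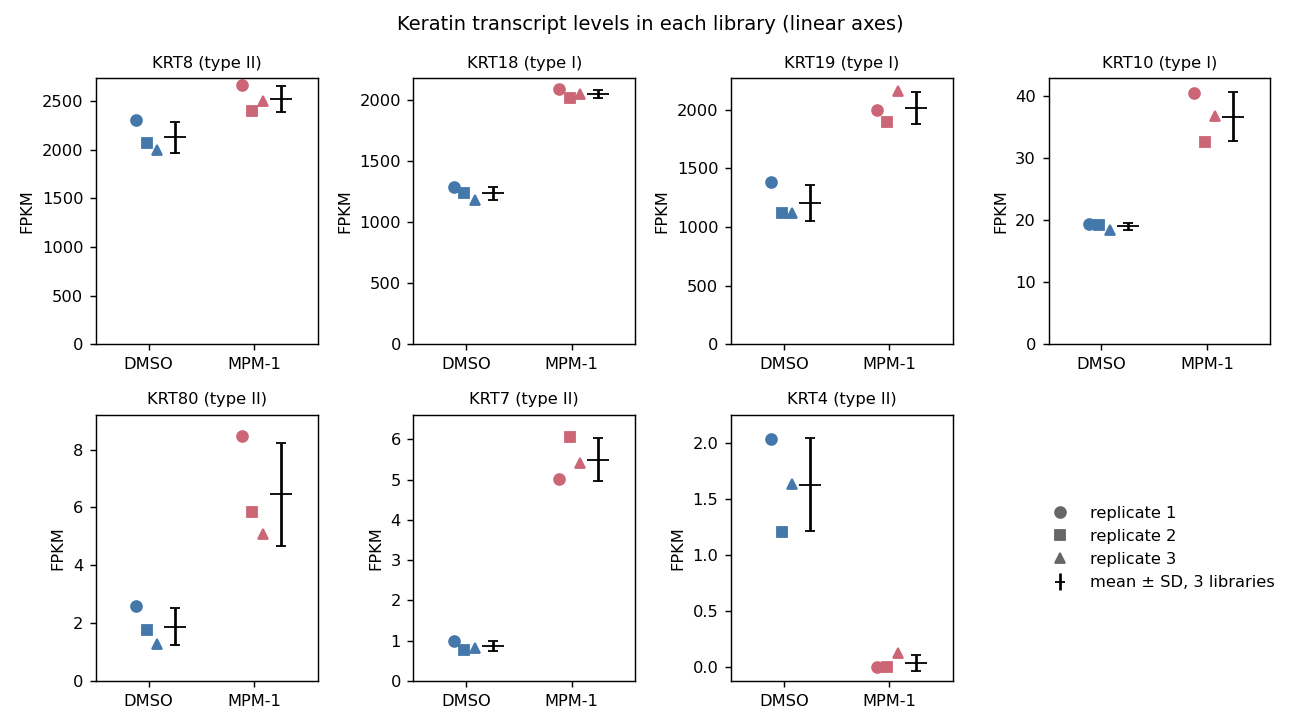
FPKM (vertical, linear axis) of each of the 7 keratins in the DMSO (blue) and MPM-1 (red) libraries. Symbols give the replicate and the black bar the mean ± SD of 3 libraries. In each panel the 3 MPM-1 libraries lie on the same side of the 3 DMSO libraries, above them in 6 genes and below them in KRT4.

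Counted as a description, 3 of the 7 keratins (KRT7, KRT10 and KRT80) were called higher, where 5.58% of all 12982 genes were. KRT4 was called lower, where 8.75% of all genes were, and in all 4 of 7 were called against 14.3% of the table. The libraries of the treatments did not overlap in 7 of 7, against 64.3% of all genes. Since the keratins were chosen by this contrast, nothing is read from these shares. The median log2 fold change was 0.89 over the 7 keratins and -0.03 over all genes. These are bulk samples, in which a change in the number of cells with a transcript and a change in its amount per cell cannot be told apart.

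The choice of scaling moved these values. Over all genes the median change on the log2 scale was -0.03 with TMM scaling, -0.18 with library size alone and -0.13 on the log2(FPKM + 1) scale. KRT8 stood 0.42, 0.27 and 0.25 higher on these scales and KRT18 stood 0.89, 0.74 and 0.73 higher. Both were above the median of all genes on each scale, and on none did they reach the size set for a call.

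The order of the levels, in FPKM, was led by KRT8 in both treatments, followed by KRT18 and KRT19, whose libraries overlapped with each other in either treatment. KRT10 came next, at 19 FPKM with DMSO and 36.6 FPKM with MPM-1. With DMSO it was followed by KRT80 and KRT4, whose ranges overlapped, and KRT7 was the lowest. With MPM-1 the order ended in KRT80 and KRT7, again overlapping, and then KRT4. KRT4 and KRT7, both of low level, thus changed places.

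KRT8, KRT18 and KRT19 together made up 99% ± 0.0435 of the FPKM of all 13 keratins with DMSO and 98.9% ± 0.0456 with MPM-1. The 13 keratins summed to 4608 ± 370 FPKM with DMSO and 6654 ± 246 FPKM with MPM-1. By counts, the 7 listed keratins took 0.806% ± 0.0596 of each DMSO library and 1.15% ± 0.0478 of each MPM-1 library.

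The summed type I and type II transcripts differed in how far they moved. Type I transcripts of the listed genes summed to 2691, 2370 and 2314 FPKM with DMSO and 4121, 3938 and 4242 FPKM with MPM-1, a ratio of means of 1.67. Type II transcripts summed to 2314, 2069 and 2001 FPKM and to 2674, 2409 and 2505 FPKM, a ratio of 1.19. Both ratios are of FPKM, on which changes stood lower than with TMM scaling, as given above. With TMM scaling of the counts, KRT8 was 1.34-fold higher and KRT18 and KRT19 were each 1.86-fold higher. The type I share was 53.8%, 53.4% and 53.6% in the DMSO libraries and 60.6%, 62% and 62.9% in the MPM-1 libraries, and the treatments did not overlap. Its mean went from 53.6% ± 0.194 to 61.9% ± 1.13. With all 13 keratins the means were 53.8% and 61.8%. This shift is made of the values by which the genes were selected and was not tested, and transcript shares say nothing of the protein pairs formed.

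The same shift was seen within the main pair. KRT8 transcripts per KRT18 transcript, in FPKM, were 1.79, 1.67 and 1.69 with DMSO and 1.28, 1.19 and 1.22 with MPM-1. The ratio of KRT8 to KRT19 was 1.77 ± 0.0924 with DMSO and 1.25 ± 0.0894 with MPM-1, without overlap between treatments. KRT8 accounted for 46.3% ± 0.206 of the listed keratins with DMSO and 38% ± 1.11 with MPM-1. The 4 minor keratins summed to 23.3 ± 1.42 FPKM and 48.6 ± 4.85 FPKM, of which KRT10 was the greater part in both.

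**Figure D2:**
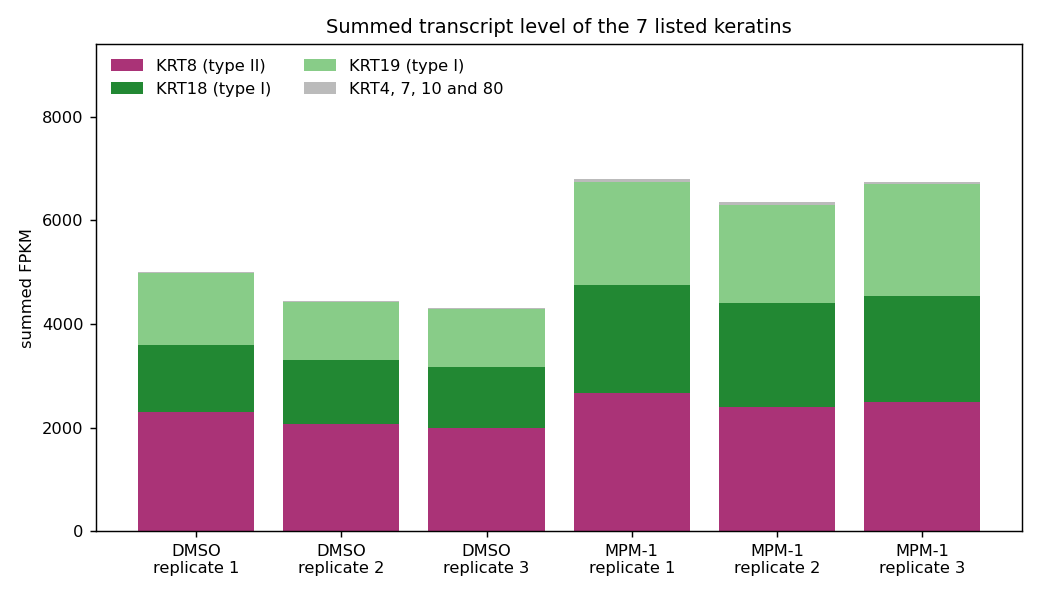
Summed FPKM (vertical, linear axis from 0) of the 7 listed keratins in each of the 6 libraries, stacked as KRT8 (type II, purple), KRT18 and KRT19 (type I, dark and light green) and the other 4 (grey). The green type I portions are taller in every MPM-1 library than in any DMSO library, while the purple KRT8 portion differs less, at a mean of 2124 against 2517 FPKM.

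The table holds 6 further keratins, of which 3 were called higher and 2 lower by the quasi-likelihood test of edgeR, with p-values adjusted by Benjamini-Hochberg over all 12982 genes. Of all genes 5.58% were called higher and 8.75% lower. These 6 are of the same family as the genes selected by this contrast, so nothing is read from their count. KRT16, a type I keratin that keratinocytes raise in wounds and under stress, rose from 0.761, 0.523 and 0.735 FPKM to 4.73, 4.27 and 3.71 FPKM. The rise was 2.81 on the log2 scale (standard error 0.24, adjusted p = 1.6e-05, edgeR). KRT81 rose by 2.66 (standard error 0.29, adjusted p = 5.65e-05, edgeR) and KRT86 by 1.99 (standard error 0.32, adjusted p = 0.000559, edgeR), with the reservation on shared sequence given above. In both, DMSO replicate 1 was the highest DMSO library, at 2.04 FPKM for KRT81 and 1.88 FPKM for KRT86, and without it the log2 fold changes were 3.09 and 2.48.

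KRT20 and KRT13 moved the other way. KRT20, the type I keratin of enterocytes and goblet cells, fell from 5.35, 6.42 and 7.72 FPKM to 1.58, 1.3 and 1.37 FPKM, by 2.03 on the log2 scale (standard error 0.20, adjusted p = 3.26e-05, edgeR). Its fall and the higher KRT7 left KRT7 above KRT20 in every MPM-1 library, while KRT20 was above KRT7 in every DMSO library. KRT13, the mucosal type I partner of KRT4, fell from 12.5, 8.01 and 9.64 FPKM to 3.23, 2.68 and 2.98 FPKM, by 1.61 on the log2 scale (standard error 0.20, adjusted p = 0.000131, edgeR). KRT15, a type I keratin of basal cells, had 1.72 ± 0.331 FPKM with DMSO and 3.05 ± 0.503 FPKM with MPM-1 and was not called (log2 fold change 0.95, adjusted p = 0.00426, edgeR). Without DMSO replicate 1 its log2 fold change was 1.23 and it was called higher. On the log2(FPKM + 1) scale KRT16, KRT81 and KRT86 stood 1.64, 1.91 and 1.35 higher. Over the 6 genes the median log2 fold change was 1.47.

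**Figure D3:**
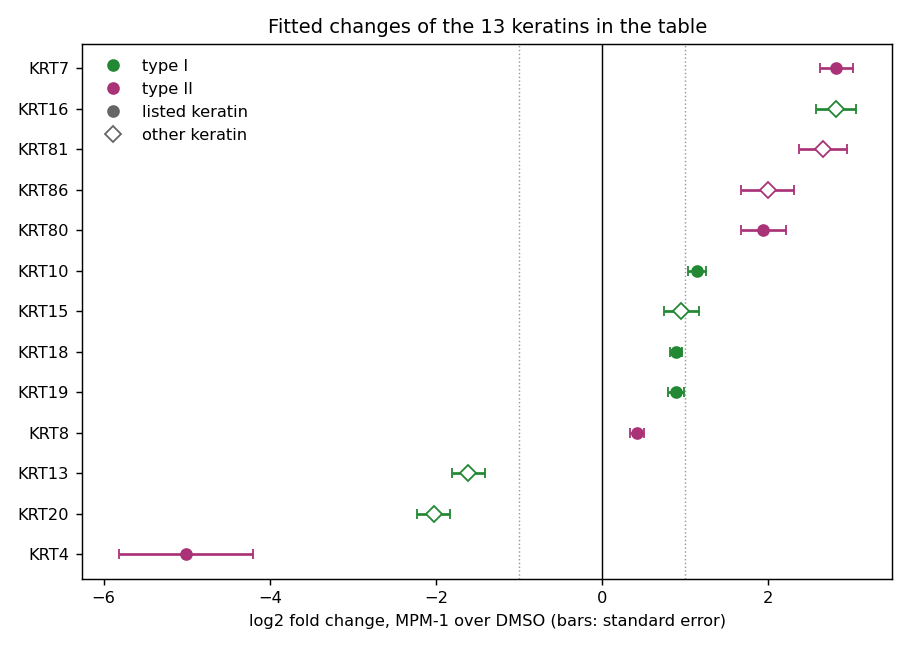
Log2 fold change of MPM-1 over DMSO (horizontal) with its standard error for the 13 keratins, with listed genes as filled circles and the other keratins as open diamonds, type I in green and type II in purple, and dotted lines at the size of 1 set for a call. KRT7 and KRT16 lie farthest to the right, at 2.82 and 2.81, KRT4 lies farthest to the left with the widest bar, and both types stand on either side of 0.

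Other intermediate filament genes were mostly of low level in these cells, apart from the lamins and, with DMSO, DES. LMNA, named with its value in view, was the highest of them and was not called. It measured 244 ± 32.4 FPKM with DMSO and 296 ± 51.8 FPKM with MPM-1. LMNB2, likewise named, had 34.6 ± 1.19 and 19.8 ± 1.02 FPKM and was not called. Of 18 listed, 10 were in the table, of which PRPH was called higher and DES, LMNB1 and SYNM were called lower, with a median log2 fold change of -0.43. Over all genes 5.58% were called higher and 8.75% lower. PRPH, the peripherin of peripheral neurons, rose from 2.37, 1.28 and 1.87 FPKM to 14.4, 13.3 and 12.2 FPKM (log2 fold change 2.86, adjusted p = 5.58e-06, edgeR). DES, the muscle filament protein desmin, fell from 24.2, 19.4 and 19.3 FPKM to 2.08, 2.61 and 1.77 FPKM (log2 fold change -3.13, adjusted p = 8.6e-07, edgeR). LMNB1, a lamin of the nuclear envelope, fell from 23.7, 29.5 and 25.5 FPKM to 3.81, 5.73 and 4.2 FPKM (log2 fold change -2.37, adjusted p = 2.2e-06, edgeR). SYNM, synemin, named to complete the count, fell by 1.68 on the log2 scale (adjusted p = 0.000583, edgeR). VIM, the vimentin of mesenchymal cells, named with its value in view, stood at 0.708 ± 0.177 FPKM with DMSO and 0.593 ± 0.0436 FPKM with MPM-1, and its treatments overlapped.

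Keratin filaments are anchored at desmosomes between cells and at hemidesmosomes on the basement membrane through plakin linkers. Of 14 desmosome genes 8 were in the table, and 0 were called by edgeR, DESeq2 or limma. In edgeR's test 6 had an unadjusted p-value under 0.05, and 4 an adjusted p-value under 0.01, which 41.1% of all genes also had. These were DSP, JUP, DSG2 and PERP, named here with their values in view, at log2 fold changes of 0.39, 0.74, 0.72 and 0.32. JUP, the plakoglobin that ties cadherins to desmoplakin, had 78, 63.9 and 63.5 FPKM with DMSO and 108, 94.7 and 104 FPKM with MPM-1. Among 10 plakin and hemidesmosome genes, all in the table, PLEC alone was called, where 14.3% of all genes were. PLEC, the linker plectin, rose from 16.8, 15.8 and 17 FPKM to 47, 47.3 and 48.1 FPKM (log2 fold change 1.63, standard error 0.08, adjusted p = 5.66e-07, edgeR). Its replicates were tight and the treatments lay far apart. ITGB4, the integrin subunit that plectin binds, also named after its value was seen, measured 24.1 ± 0.422 FPKM and 40.6 ± 0.735 FPKM and stayed just under the fold threshold (log2 fold change 0.93, adjusted p = 6.04e-06, edgeR). The median log2 fold change was 0.33 in the desmosome list and 0.51 in the plakin and hemidesmosome list, against -0.03 over all genes. Not every gene of these lists rose. EVPL of the plakins and PKP3 of the desmosome, named with their values in view, had log2 fold changes of -0.56 and -0.21. Both were lower in each MPM-1 library than in any DMSO library. PKP2, likewise named with its value in view, stood at -0.08, and its treatments overlapped.

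Of 19 genes for keratin-binding proteins and modifying enzymes, YWHAH was called higher and TGM2 and TCHP were called lower, with a list median of 0.10. These 3 of 19 are near the 14.3% called over all genes. YWHAH, an adaptor of the family that binds phosphorylated keratins, rose from 104, 95.8 and 85.1 FPKM to 171, 163 and 179 FPKM. Its log2 fold change of 1.00 (adjusted p = 2.66e-05, edgeR) was at the threshold, and 7 of 14 alternative settings did not call it. TGM2, a transglutaminase that cross-links proteins, fell from 4.07, 3.92 and 4.34 FPKM to 1.35, 1.46 and 1.26 FPKM (log2 fold change -1.44, adjusted p = 1.82e-05, edgeR). TCHP, the keratin-binding protein trichoplein, fell from 3.21, 4.04 and 4.17 FPKM to 1.38, 1.37 and 1.3 FPKM (log2 fold change -1.32, adjusted p = 0.000134, edgeR).

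Of 23 transcription factor genes of epithelia 21 were in the table, of which 3 were called higher and 4 lower (beside 5.58% and 8.75% of all genes), with a median log2 fold change of 0.04. ETS1 rose from 0.339, 0.294 and 0.305 FPKM to 2.96, 2.87 and 2.7 FPKM (log2 fold change 3.23, adjusted p = 1.81e-06, edgeR, and 1.55 on the log2(FPKM + 1) scale). ELF3, an epithelial member of the same family, rose from 18.1, 15.3 and 17.3 FPKM to 48.8, 45.2 and 51.7 FPKM (log2 fold change 1.58, adjusted p = 3.06e-06, edgeR). Both were higher in each MPM-1 library than in any DMSO library.

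CDX2, the caudal homeobox factor of the intestine, was among the genes that fell and went from 19.5, 22 and 20.9 FPKM to 2.88, 4.59 and 4.73 FPKM (log2 fold change -2.20, adjusted p = 5.29e-06, edgeR). Other called genes, named with their values in view, were FOSL1, which rose by 1.03 on the log2 scale (adjusted p = 0.000445, edgeR), TFAP2C, which fell by 1.08 (adjusted p = 0.00245, edgeR), and OVOL1, which fell by 1.05 (adjusted p = 0.00377, edgeR). The genes that induce mesenchymal traits, ZEB1 and SNAI1, named with their values in view, had log2 fold changes of 0.54 and 0.10 and were not called. Of 18 genes of the stratified epithelium and cornified envelope, 3 were in the table (TGM1, KLK7 and CNFN, named with their values in view), at log2 fold changes of -0.83, 0.38 and -0.91. Of these, 0 were called by edgeR, DESeq2 or limma on log2(FPKM + 1), 1 was called lower by limma on log2(FPKM + 0.1) (TGM1), and 3 had an unadjusted p-value under 0.05 in edgeR's test.

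**Figure D4:**
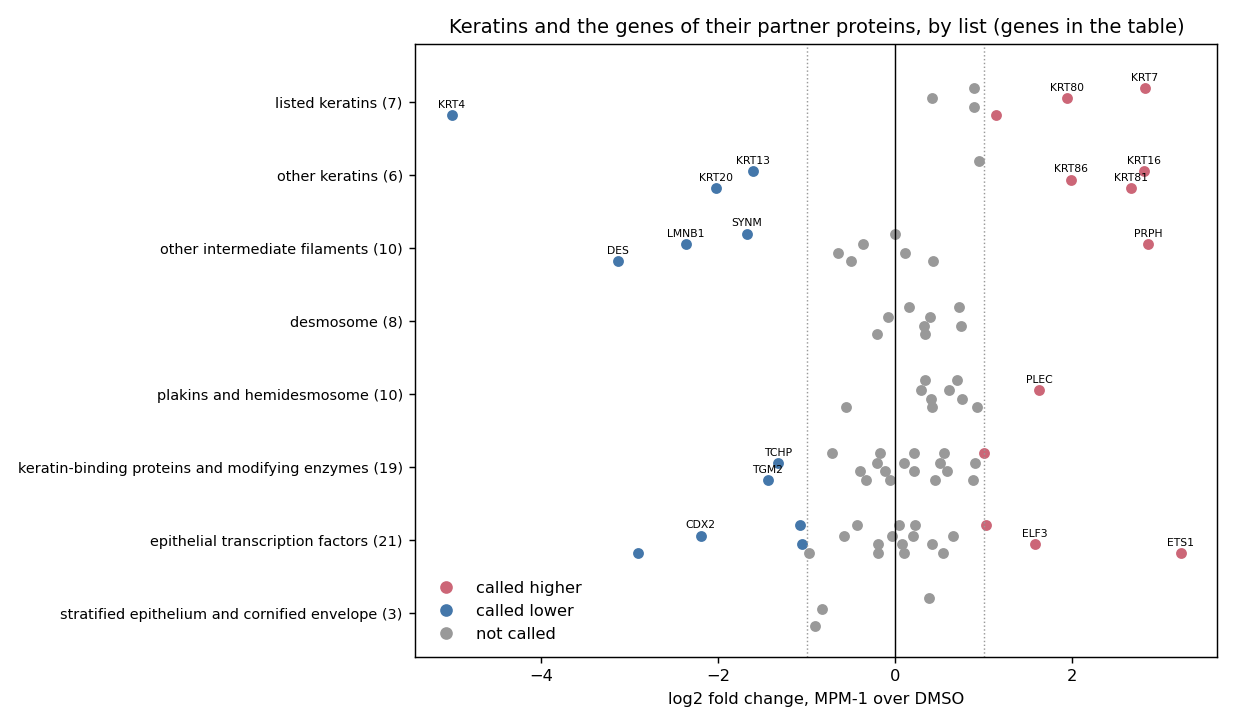
Log2 fold change of MPM-1 over DMSO (horizontal) for each gene in the table of the keratin list and of 7 related lists (rows, with the number of genes shown), in red where called higher, blue where called lower and grey where not called, with dotted lines at the size of 1. The desmosome genes lie between -0.21 and 0.74 with none called, whereas the other keratins and the other intermediate filaments spread to both sides.

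The genes whose pattern over the 6 libraries was most like that of each keratin were sought among 9241 genes whose mean reached 10 CPM, by Pearson's correlation of log2 CPM, given as a description. For KRT8 they were GRK2 (r = 0.9989), TOX4 and CFLAR, and for KRT18 they were SQSTM1 (r = 0.9994), SNX9 and DCTN5. For KRT19 they were DBN1 (r = 0.9991), TVP23B and SPNS2, and for KRT10 they were ZMYM5 (r = 0.9992), AHNAK and CLIP1. KRT7 was closest to RBCK1 (r = 0.9998), ISCU and TFPI, KRT80 to DYNC1LI2 (r = 0.9950), AKAP13 and COG3, and KRT4 to EP300 (r = 0.9961), SOCS5 and GAS2L3. The 6 points fall into the treatments, and from 272 genes for KRT4 to 1582 for KRT18 exceeded r = 0.95, so a high r was common. The fold changes of these genes were often unlike those of the keratin they followed. EP300, with r = 0.9961 to KRT4, had a log2 fold change of -0.45, against -5.01 for KRT4.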

How the data were processed

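RNA sequencing was carried out on 6 libraries of SW480 cells, 3 with DMSO and 3 with MPM-1, grouped by the sample labels. The authors deposited 1 table with a whole-number count and an FPKM value per gene and library. It also holds log2 fold changes and FDR values (adjusted p-values) of the authors' own comparison, which were not used. The submitters' processing notes name HISAT2, DESeq2 and the mouse build mm10, whereas the gene identifiers are human. Coordinates here are from GRCh38 and GENCODE release 29 by gene identifier. The counting tool and its strand setting are not given in the sources used here. Every gene in the table had at least 115 counts in total.

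Counts were tested with edgeR 4.0.16 (quasi-likelihood, TMM, Benjamini-Hochberg, R 4.3.3) across all 12982 genes, without covariates, and the low-count filter removed 0. The common dispersion was 0.0231. The test was tried on simulated counts. Chi-square per gene was 15.4 to 33.2 between libraries of a treatment, so none was a copy of another. The alternatives used DESeq2 1.42.0, limma 3.58.1 on log2(FPKM + 1) and log2(FPKM + 0.1) for genes whose mean reached 1 FPKM, which left out KRT4, other scalings and filters, a replicate block, each library left out and looser thresholds.

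The keratins and the lists of related genes were chosen with earlier results of these data known. Named were all keratins in the table, the 2 largest called rises and 2 largest called falls of each list, and the 3 nearest patterns of each keratin, and genes outside this rule are marked in the text. A few items are not reported here.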

Additional observations from a re-analysis of the deposited data

How the results depend on the processing

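The counts were 1861 genes called over the whole table (14.3% of it), 4 listed keratins and 20 related genes (9 higher and 11 lower). The related genes are those in the table from the related lists. These held 6 other keratins and 10, 8, 10, 19, 21 and 3 further genes. Nothing is read from the counts of keratins or related genes. The type I share was 8.26 percentage points higher after MPM-1. With limma on log2(FPKM + 1), 1067 genes and 2 keratins were called, and with limma on log2(FPKM + 0.1) 2 keratins were. In both, KRT4 was left out by the filter on FPKM, and KRT10, at 0.91 and 0.94 on the log2 scale, was not called. With adjusted p-values below 0.05 as the sole criterion, 7336 of all 12982 genes passed, so passing was common. The same criterion passed 7 keratins and 57 related genes (35 higher and 22 lower). Scaling by library size alone turned the split of calls from 39% to 26.8% higher, limma on log2(FPKM + 0.1) to 28.9%, and KRT10 was not called in either. With each library left out in turn, the genes called ranged from 1609 to 1972, the keratins from 4 to 5 (KRT19 was added without DMSO replicate 1), the related genes from 17 to 19 (10 higher and 9 lower without DMSO replicate 1 or MPM-1 replicate 1) and the type I difference from 7.75 to 8.86 points. By counts in place of FPKM it was 8.2 points. KRT4, without MPM-1 replicate 3, had a fitted log2 fold change of -10.19, which depends on the prior count and is no bound.

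The libraries share replicate numbers only. Deviations of same-numbered libraries from their treatment means correlated at 0.0214, 0.114 and -0.0737, so the numbers were not taken as pairs. A fit with the replicate block called 1832 genes, 4 keratins and 20 related genes.

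For 24 named genes, 334 values under the alternatives gave 313 that kept their direction and call or moved by less than the replicate spread, 13 that moved further, 7 in which YWHAH lost its call, 1 in which KRT15 gained one and 0 that reversed. In this tally the listed keratins were judged by the size of the change and not by call. Counting the main setting, KRT10 was called in 12 of 15 settings and KRT19 in 1 of 15. Depth limits KRT4 most, with 12 counts over the 3 MPM-1 libraries.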

Other observations

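Markers of the colonic epithelium did not move together. Of the 10 in the table, edgeR's quasi-likelihood test called TFF3 and CEACAM6 higher and CDX2 lower, and the median log2 fold change was 0.01. Over all genes 5.58% were called higher and 8.75% lower. The markers below were named with their values in view. TFF3, a trefoil peptide of goblet cells, went from 7.8 ± 1.32 to 19.4 ± 5.42 FPKM (SD, n = 3 libraries each, log2 fold change 1.47, adjusted p = 0.000248, edgeR). CEACAM6, a cell adhesion antigen of colorectal tumors, stood at 0.391 ± 0.0775 and 0.879 ± 0.248 FPKM (log2 fold change 1.31, adjusted p = 0.00661, edgeR). EPCAM, the adhesion molecule by which carcinoma cells are commonly identified, measured 400 ± 22 and 360 ± 11.2 FPKM, with a log2 fold change of -0.00 from the counts (adjusted p = 0.995, edgeR). VIL1, the villin of the microvillus core, went from 39.4 ± 2.74 to 19.5 ± 0.653 FPKM, and its log2 fold change of -0.88 (adjusted p = 1.72e-05, edgeR) did not reach the size set for a call. CDH1, the E-cadherin of adherens junctions, had 25.1 ± 1.46 and 39.7 ± 3.91 FPKM (log2 fold change 0.82, adjusted p = 0.000124, edgeR), likewise not called. CDX1, CDH17, LGALS4 and CA2 were not called either, at log2 fold changes of -0.98, -0.47, 0.50 and 0.03.

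The markers of other cell types that were in the table were both called lower (beside 8.75% of all genes), with COL1A1 at a log2 fold change of -2.07 (adjusted p = 0.00536, edgeR) and CD14 at -1.34 (adjusted p = 0.00315, edgeR), from means of 0.468 and 5.08 FPKM with DMSO. Their part in any keratin value was not tested.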
